A study of Mus musculus with 8 samples.

Results

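Cholesterol is built from acetyl-CoA through mevalonate, isoprenoid diphosphates, squalene and lanosterol, and most genes of this route are switched on together when membrane sterol runs low. The switch is SREBP-2, the protein of Srebf2, a transcription factor held in the endoplasmic reticulum by SCAP and INSIG proteins until sterol falls, then cut free in the Golgi. Transcripts of 8 genes of this route were taken up here by their symbols: Srebf2 itself, Hmgcs1 and Idi1 of the early steps, Fdft1, Sqle and Lss, which make and close squalene, and Cyp51 and Dhcr7, which work on the sterol rings. A named row was found for 6 of the 8 genes, among 15267 genes tested in all; Hmgcs1 and Idi1 were not analysed here. With both Tet1 siRNAs at 96 h, Sqle and Cyp51 were higher than in the control, Lss and Dhcr7 were lower, and Fdft1 and Srebf2 did not pass the test.

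The cells were E14Tg2a, a mouse embryonic stem (ES) cell line, transfected with short interfering RNAs. Tet1 encodes an enzyme that oxidises methylated cytosine in DNA. In total 8 Affymetrix arrays were used, 2 for each of 4 groups. Tet1 siRNA #1 (siRNA 1) was read at 48 h and 96 h, and Tet1 siRNA #2 (siRNA 2) and the control siRNA, a duplex aimed at firefly luciferase, which mouse cells lack, were read at 96 h. A 48 h control was not among the arrays analysed, and Tet1 itself was not analysed here, so the depth of the knockdown was not checked. Separate cultures for the arrays of one group are not stated in the labels, so every p-value below rests on array-to-array spread alone, possibly a technical one.

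Values are log2 RMA signals, 1 per gene and array, where 1 unit is a doubling. The medians of the 8 arrays lay between 6.68 and 6.72. The arrays did not share one distribution exactly. A further quantile normalization moved the siRNA 1 difference of Lss, 96 h minus 48 h, from 0.32 to 0.22. Between arrays of a group the values of all genes correlated at Pearson's r of 0.997 to 0.998, and between arrays of different groups at 0.983 to 0.997. All 12 ES cell markers had a row, and Pou5f1 (Oct4) lay between 13.51 and 13.76 on the 8 arrays. Some other markers of the list varied more. Nanog lay between 10.85 and 12.64, Esrrb between 8.47 and 10.24, and Klf4 between 9.65 and 12.09. Each of these was lowest with siRNA 1 at 96 h and highest with siRNA 1 at 48 h. By contrast, Utf1 (11.35 to 12.17), Tdgf1 (13.13 to 13.77) and Dppa4 (12.60 to 12.90) were lowest in the control. Transcripts of lung epithelium, which ES cells are not known for, stood out on the 96 h arrays. The summed linear signal of 17 lung markers at 96 h was 11504 to 11783 in the control and 8757 to 9998 with siRNA 1. It was 7783 to 12696 with siRNA 2, and 1644 to 1716 with siRNA 1 at 48 h. Such a sum rests on its brightest genes, Scgb1a1 at 96 h and Hopx at 48 h. Hopx, at 9.87 and 9.78 at 48 h, was not lower there than with siRNA 1 at 96 h (9.69 and 9.73). Napsa and Foxj1 overlapped between these groups. Scgb1a1, the secretory protein of club cells, was at 3.71 and 4.03 at 48 h against 11.95 to 12.83 at 96 h. The lowest value of any probe set was 2.6, and no limit of detection was set. As bulk values, these signals cannot tell fewer cells of a type from less RNA per cell. The ± sign gives the standard error of a fitted difference (2 arrays a group), and adjusted p-values are from limma with Benjamini-Hochberg adjustment over all 15267 genes, with 0.05 as the threshold.

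**Figure D1:**
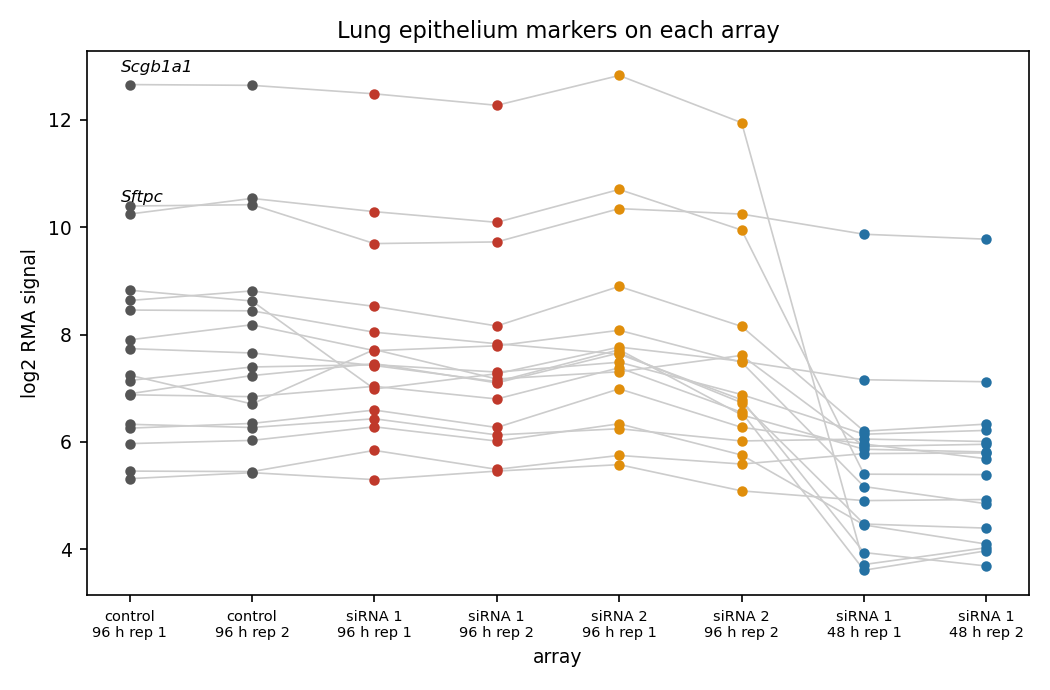
Log2 RMA signal (vertical axis) of the 17 measured lung epithelium markers on each of the 8 arrays (horizontal axis); each point is 1 marker on 1 array, and grey lines join a marker's points. Scgb1a1 and Sftpc lie at 9.95 or above on the 96 h arrays and at 5.40 or below on the 48 h arrays.

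The first question was what changed when both Tet1 siRNAs were set against the control at 96 h. Of the 6 measured genes 2 rose and 2 fell, and the median of the 6 differences was -0.07 on the log2 scale. Over all genes tested, 24.2% passed the threshold in this comparison, 12% higher and 12.2% lower, and the median difference was -0.02. The siRNA arrays did not overlap the control arrays for 5 of the 6 genes and for 44.3% of all genes. So 4 of 6 passed, with no common direction. The listed genes were chosen with earlier results of these data known, so their share cannot be weighed against that of the whole table. Only these counts and medians are given for the group.

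Srebf2, the regulator of the route, showed no called difference at 96 h. Its signal was 8.23 and 8.09 in the control, 8.08 and 8.19 with siRNA 1, and 8.08 and 8.08 with siRNA 2. The siRNA 1 arrays overlapped both other groups, and the siRNA 2 arrays lay just under the control arrays. The difference was -0.05 ± 0.070 with a 95% interval from -0.21 to 0.11 (adjusted p = 0.662, limma), so a change of more than 0.21 in either direction lies outside the interval.

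Fdft1 encodes squalene synthase, which joins farnesyl diphosphate units into the first intermediate committed to sterols. Its signal was 10.80 and 10.69 in the control, 10.69 and 10.68 with siRNA 1, and 10.62 and 10.64 with siRNA 2. The siRNA arrays lay just under the control arrays. The difference of -0.09 ± 0.063 (95% interval -0.23 to 0.06, adjusted p = 0.351, limma) did not pass.

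Sqle encodes squalene epoxidase, which adds the oxygen on which ring closure depends and is a rate-limiting step of the later pathway. It was at 10.00 and 10.00 in the control, 10.62 and 10.68 with siRNA 1, and 10.41 and 10.62 with siRNA 2. Every siRNA array was above both control arrays. The rise was 0.58 ± 0.080, or 1.49-fold (95% interval 0.39 to 0.76, adjusted p = 0.00154, limma), the largest of the 6 genes in this comparison.

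Lss encodes lanosterol synthase, the enzyme that folds epoxidised squalene into the first sterol. The control arrays read 9.61 and 9.91, the siRNA 1 arrays 9.39 and 9.32, and the siRNA 2 arrays 9.41 and 9.35. All siRNA arrays were below both control arrays, which lay further apart than the arrays of any other group for this gene. Lss fell by 0.39 ± 0.089, or 1.31-fold (95% interval -0.60 to -0.19, adjusted p = 0.0148, limma). Without control replicate 2, the higher of the control arrays, the difference was -0.24 and no longer called (adjusted p = 0.110).

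Cyp51 encodes lanosterol 14-alpha-demethylase, the cytochrome P450 that opens the work on lanosterol and the target of azole drugs in fungi. Its arrays read 8.95 and 8.93 in the control, 9.33 and 9.35 with siRNA 1, and 9.35 and 9.39 with siRNA 2. The siRNA groups coincided and lay clear of the control. Cyp51 rose by 0.41 ± 0.063, or 1.33-fold (95% interval 0.27 to 0.56, adjusted p = 0.00243, limma), and its arrays agreed most closely within groups of the 6 genes (within-group SD 0.039, against a median of 0.095 over all genes).

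Dhcr7 encodes 7-dehydrocholesterol reductase, which makes cholesterol in the last step of a main branch and is the gene mutated in Smith-Lemli-Opitz syndrome. It was at 9.51 and 9.65 in the control, 9.11 and 8.88 with siRNA 1, and 9.28 and 9.10 with siRNA 2. All siRNA arrays were below the control arrays, and the siRNA groups overlapped each other. Dhcr7 fell by 0.48 ± 0.093, or 1.40-fold (95% interval -0.69 to -0.27, adjusted p = 0.00735, limma). It too lost its call without control replicate 2 (difference -0.41, adjusted p = 0.0600), whereas the calls for Sqle and Cyp51 held in all 8 fits that left out 1 array (highest adjusted p 0.0137 and 0.0239). Leaving out control replicate 2 also lowered the number of genes called over the whole table from 3700 to 2218, and leaving out control replicate 1 lowered it to 2307.

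**Figure D2:**
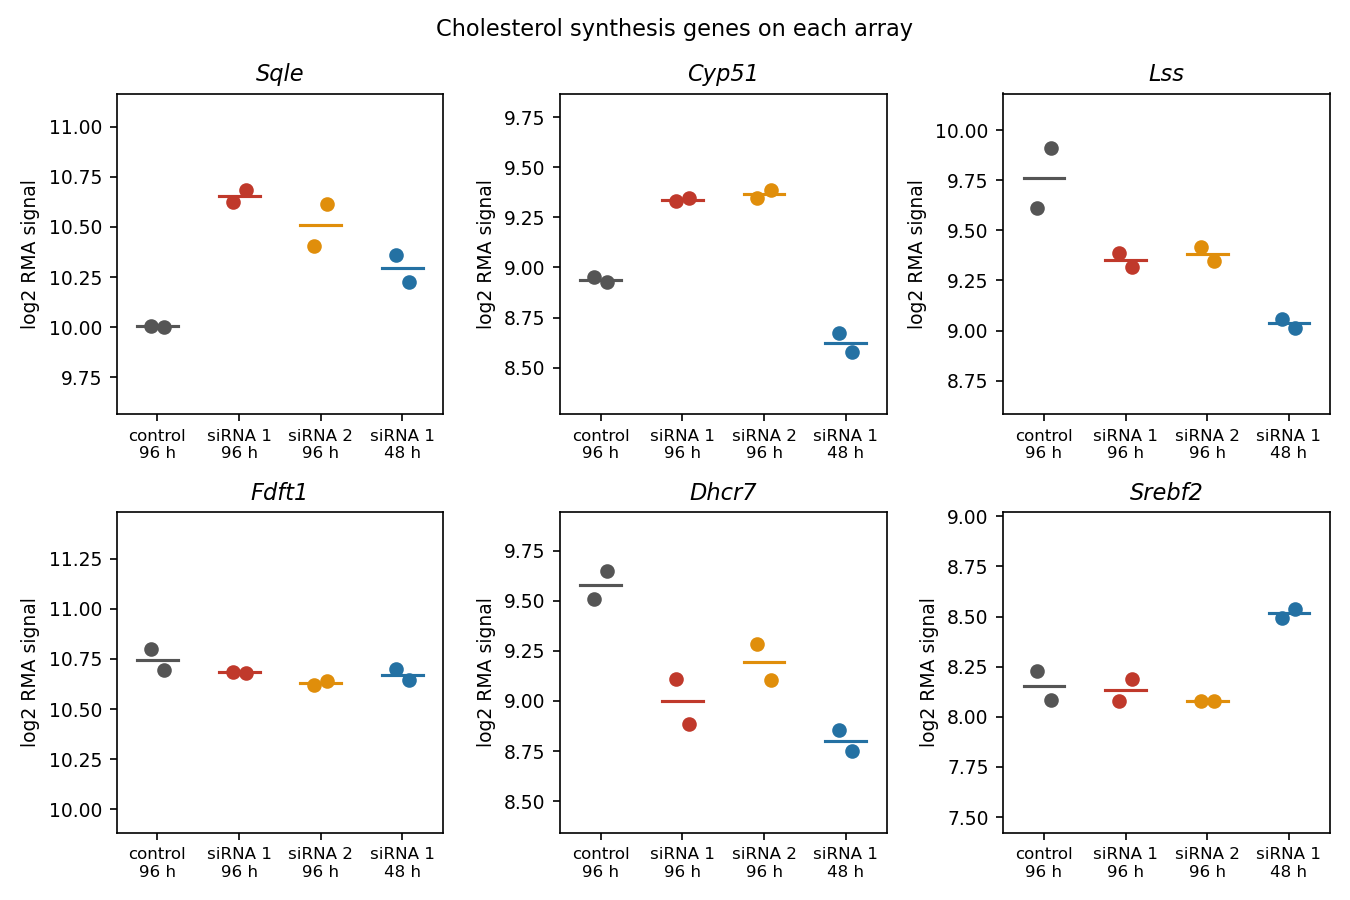
Log2 RMA signal of each of the 6 measured genes (vertical axis, 1 panel per gene, all panels with the same span) in the 4 groups (horizontal axis); points are arrays and lines are group means of 2 arrays. Sqle and Cyp51 are above the control with both siRNAs at 96 h, Lss and Dhcr7 are below it, and Srebf2 stands apart at 48 h, where its arrays read 8.49 and 8.54.

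Of the 17 lung markers 0 rose and 3 fell in this comparison (Napsa by 1.34, Bpifa1 by 0.88 and Hopx by 0.40), with a median of -0.09. Of the 12 ES cell markers 2 rose and 7 fell (median -0.35). Of 14 fibroblast markers 3 rose and 1 fell (median -0.02), and of 12 liver markers 0 rose and 1 fell (median -0.01). Over all genes 24.2% were called, 12% higher and 12.2% lower. The part of these markers in the sterol gene differences was not tested. A further fit took the mean lung marker level of each array as a covariate. The differences for both siRNAs against control were then 0.52 for Sqle, 0.40 for Cyp51, -0.36 for Lss and -0.41 for Dhcr7. Each remained past the threshold (limma adjusted p from 0.00464 for Sqle to 0.0466 for Lss). This adjustment rests on differences between arrays of one group, which were widest in the siRNA 2 pair (mean lung marker level 7.92 and 7.36). It therefore cannot decide what part the lung markers had.

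The route has further enzymes, of which 11 of 15 listed had a named row. Their median difference was -0.14, with 3 rises, 1 fall and 7 not past the threshold. The 17 measured genes of synthesis together thus gave 5 rises, 3 falls and 9 that did not pass. Of all genes tested, 24.2% were called in this comparison, 12% higher and 12.2% lower. The enzymes that turn mevalonate into isopentenyl diphosphate were not called: Mvk stood at -0.14 ± 0.090, Pmvk at -0.16 ± 0.060 and Mvd at -0.19 ± 0.081 (limma adjusted p from 0.0838 to 0.299). All called enzymes therefore act after Fdft1, and of the steps before it those of Mvk, Pmvk and Mvd were the measured ones.

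Removal of the methyl groups at carbon 4 of the sterol ring is shared by Msmo1, a methyl oxidase, Nsdhl, a dehydrogenase, and Hsd17b7, a ketosteroid reductase. Hsd17b7 was at 7.30 and 7.20 in the control, 7.84 and 7.76 with siRNA 1, and 7.60 and 7.78 with siRNA 2. All siRNA arrays were above the control arrays, and the rise was 0.49 ± 0.076, or 1.41-fold (adjusted p = 0.00260, limma). Msmo1 was at 10.51 and 10.52 in the control, 10.88 and 11.10 with siRNA 1, and 10.67 and 10.90 with siRNA 2. It rose by 0.37 ± 0.090 (adjusted p = 0.0197, limma), a call lost without control replicate 1 (adjusted p = 0.0898) or control replicate 2 (0.0829). Nsdhl, in the same complex of reactions, stood at -0.16 ± 0.072 (adjusted p = 0.140, limma), and Erg28, whose yeast counterpart tethers these enzymes, at 0.23 ± 0.077 (adjusted p = 0.0695).

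The reductases of carbon 14, Tm7sf2 and Lbr, did not pass (-0.21 ± 0.096 and 0.10 ± 0.062). Ebp, the isomerase that moves the ring double bond, was at 9.63 and 9.69 in the control, 9.07 and 9.18 with siRNA 1, and 9.26 and 9.29 with siRNA 2. It fell by 0.46 ± 0.066, or 1.37-fold (adjusted p = 0.00186, limma), on all siRNA arrays. Sc5d, the desaturase that acts after Ebp, was at 8.45 and 8.63 in the control, 8.95 and 9.06 with siRNA 1, and 8.78 and 8.91 with siRNA 2. It rose by 0.39 ± 0.083 (adjusted p = 0.0114, limma), which was not called without control replicate 1 (adjusted p = 0.0916). Rises and falls thus stood side by side along the later route: Sqle up, Lss down, Cyp51, Msmo1 and Hsd17b7 up, Ebp down, Sc5d up and Dhcr7 down.

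**Figure D3:**
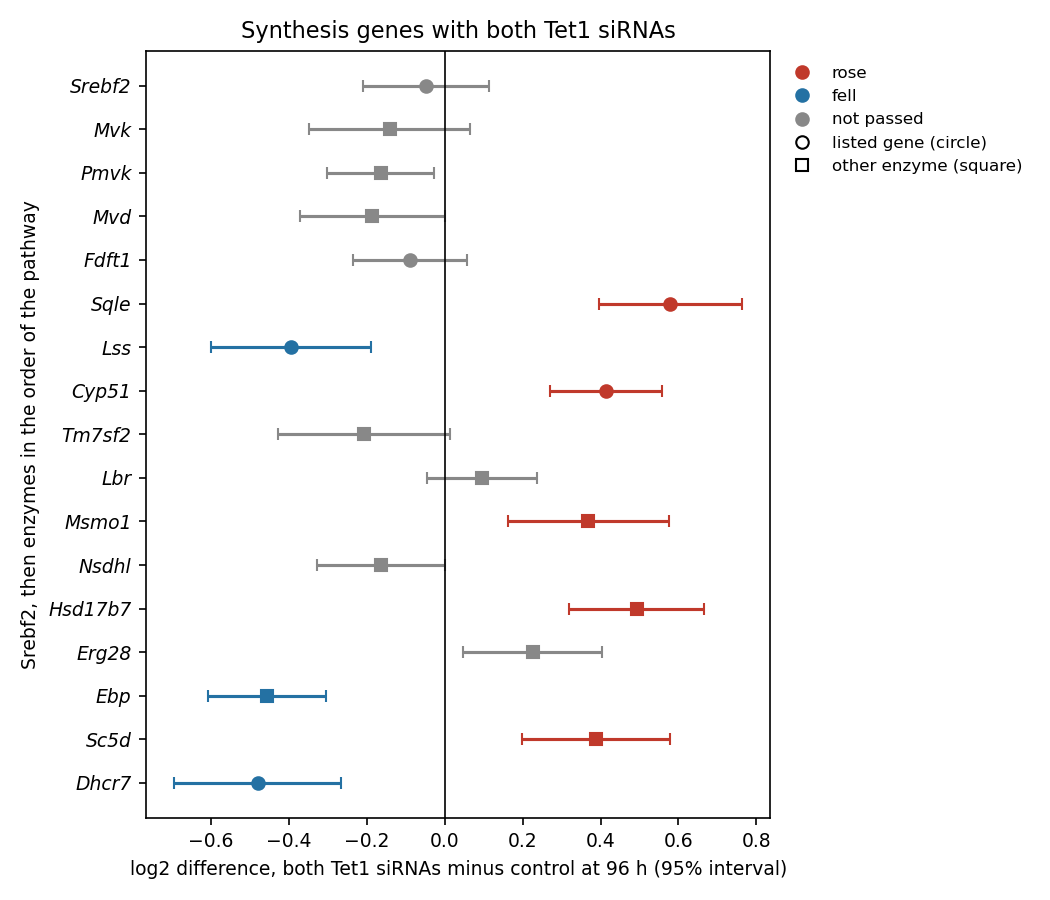
Log2 difference between both Tet1 siRNAs and the control at 96 h (horizontal axis) for the 17 measured genes of cholesterol synthesis (vertical axis, Srebf2 at the top, then enzymes in the order of the route); bars are 95% intervals, circles the genes listed by name, squares the other enzymes. Red marks the 5 rises, blue the 3 falls and grey the 9 genes that did not pass.

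Because enzymes of one route moved both ways, the sequences before their start sites are shown for a pair that rose, Cyp51 and Hsd17b7, and a pair that fell, Lss and Ebp. The windows, from RefSeq on build GRCm38.p6, run from 250 bases before to 50 bases after the start, 5′ to 3′ along the gene; capitals mark matches on either strand to ATTGG (the NF-Y box) or GGGCGG (the Sp1 box), the partners that SREBP proteins are known to work with. None of the matches in these windows overlapped another. The windows lie at chr5:4104648-4104947 on the minus strand for Cyp51, chr1:169969156-169969455 on the minus strand for Hsd17b7, chr10:76531355-76531654 on the plus strand for Lss, and chrX:8193463-8193762 on the minus strand for Ebp.
Cyp51: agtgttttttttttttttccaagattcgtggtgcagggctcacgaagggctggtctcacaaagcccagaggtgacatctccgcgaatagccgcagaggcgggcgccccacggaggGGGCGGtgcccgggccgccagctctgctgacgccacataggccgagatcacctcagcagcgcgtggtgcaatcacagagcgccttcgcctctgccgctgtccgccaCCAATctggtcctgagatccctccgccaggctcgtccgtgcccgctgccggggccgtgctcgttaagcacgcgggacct
Hsd17b7: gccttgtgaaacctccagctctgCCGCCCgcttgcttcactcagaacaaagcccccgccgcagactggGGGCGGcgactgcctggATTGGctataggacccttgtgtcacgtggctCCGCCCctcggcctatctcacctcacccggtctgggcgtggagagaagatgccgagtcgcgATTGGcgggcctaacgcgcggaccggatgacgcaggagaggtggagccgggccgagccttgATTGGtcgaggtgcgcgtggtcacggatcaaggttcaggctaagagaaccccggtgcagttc
Lss: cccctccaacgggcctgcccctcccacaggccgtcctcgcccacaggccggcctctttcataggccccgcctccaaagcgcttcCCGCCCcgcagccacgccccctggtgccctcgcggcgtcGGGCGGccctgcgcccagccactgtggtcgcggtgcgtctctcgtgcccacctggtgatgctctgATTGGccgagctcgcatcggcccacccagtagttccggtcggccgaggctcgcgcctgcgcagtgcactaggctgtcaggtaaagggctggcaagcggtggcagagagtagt
Ebp: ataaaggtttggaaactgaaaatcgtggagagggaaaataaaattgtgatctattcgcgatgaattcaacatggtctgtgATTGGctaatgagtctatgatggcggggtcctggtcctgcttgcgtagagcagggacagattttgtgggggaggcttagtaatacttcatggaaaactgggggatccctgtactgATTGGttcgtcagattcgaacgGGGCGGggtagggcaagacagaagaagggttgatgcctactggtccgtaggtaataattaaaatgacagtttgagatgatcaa

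Windows were matched by symbol for 6 of the 8 listed genes and 12 of the 15 other enzymes, 21 windows of 18 genes, since a gene can have several starts. In Cyp51 the NF-Y box starts 29 bases before the start site and the Sp1 box 135 bases before it, and in Lss the NF-Y box starts 62 bases before it. ATTGG was in 16 of the 21 windows, against 37.4% of all 32851 windows in the table, and GGGCGG in 18, against 35.7%. Both kinds of box were found in windows of genes that rose and of genes that fell. The 4 windows of 4 genes that rose all held both, and of 5 windows of 3 genes that fell, 3 held ATTGG and 4 held GGGCGG. Those that lacked a box were all further starts of Dhcr7, which held both kinds in another window. Counted by gene, the 4 that rose and the 3 that fell thus all held both kinds. Sqle and Fdft1 had no window. The sterol regulatory element was searched as TCACNCCAC on both strands, and its letters were in 1 of the 21 windows, that of Hmgcs1, 137 bases before the start, and in 1.24% of all windows. These are matches of letters, not bound sites. No other spelling of the sterol regulatory element was searched, so a window without TCACNCCAC may still hold the element in another form.

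The genes that sense sterol were then read from the same comparison: 2 of 9 measured rose, 0 fell, and the median was 0.05, a share near that of all genes. Scap, the escort that carries SREBP proteins to the Golgi, was at 8.96 and 9.07 in the control, 9.43 and 9.32 with siRNA 1, and 9.36 and 9.34 with siRNA 2. All siRNA arrays were above the control arrays, and it rose by 0.35 ± 0.070, or 1.28-fold (adjusted p = 0.00818, limma), a call lost without control replicate 1 (adjusted p = 0.0693). Srebf1, the SREBP of fatty acid synthesis, rose by 0.23 ± 0.063 (adjusted p = 0.0310, limma). This call was lost in 5 of 8 fits without 1 array (both controls, siRNA 1 replicate 1 and both siRNA 2 arrays), with adjusted p from 0.0630 to 0.134. Insig1, a retention factor and itself a classical SREBP target, stood at 0.14 ± 0.072 (adjusted p = 0.189).

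Of genes for lipoprotein uptake and sterol transport, 0 of 10 measured rose and 3 fell (median -0.16), a share near the 24.2% of all genes called. Osbpl2, an oxysterol-binding protein, was at 9.13 and 9.28 in the control, 8.35 and 8.34 with siRNA 1, and 8.54 and 8.39 with siRNA 2. No siRNA array overlapped the control arrays, and Osbpl2 fell by 0.80 ± 0.079, or 1.74-fold (adjusted p = 0.000310, limma). Npc2, the soluble lysosomal cholesterol carrier, fell by 0.45 ± 0.060 (adjusted p = 0.00135), and Stard3, a sterol transfer protein of late endosomes, by 0.31 ± 0.066 (adjusted p = 0.0116, lost without control replicate 2 at 0.102). Npc1, the membrane partner of Npc2, stood at -0.18 ± 0.089 and did not pass (adjusted p = 0.192).

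Sterol export and storage held the greatest fall among the 7 lists. Of 11 measured genes 1 rose and 3 fell (median -0.20), where 24.2% of all genes were called. Apoe, the apolipoprotein that carries cholesterol out of many cells, was at 12.05 and 12.15 in the control, 10.69 and 10.96 with siRNA 1, and 10.91 and 11.05 with siRNA 2. Both siRNA groups were lower by more than 1 log2 unit, and the fall was 1.20 ± 0.091, or 2.29-fold (adjusted p = 9.3e-05, limma). Abca1, the pump that loads cholesterol onto apolipoproteins, was at 5.66 and 5.81 in the control, 4.91 and 4.93 with siRNA 1, and 5.20 and 5.07 with siRNA 2. It fell by 0.70 ± 0.078, or 1.63-fold (adjusted p = 0.000509), and Abcg1, a related exporter, by 0.48 ± 0.066, or 1.39-fold (adjusted p = 0.00156). Nceh1, a cholesteryl ester hydrolase, rose by 0.25 ± 0.070 (adjusted p = 0.0334, limma), a call lost in 7 of 8 fits without 1 array (all but siRNA 1 at 96 h replicate 1), with adjusted p up to 0.224. Nr1h3, which encodes the oxysterol receptor LXR-alpha, a known activator of Abca1 and Abcg1, stood at -0.29 ± 0.097 and did not pass (adjusted p = 0.0620, limma). Its signal was low, from 5.22 to 5.70 on the 8 arrays, and its part in the falls of Abca1 and Abcg1 was not tested.

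Branches that leave the route at farnesyl diphosphate gave 1 rise and 4 falls among 13 measured genes (median 0.02), where 24.2% of all genes were called. The falls were Fntb, the beta subunit of protein farnesyltransferase (-0.45 ± 0.098, adjusted p = 0.0128, lost without control replicate 2 at 0.101), Pggt1b of the geranylgeranyl transferase (-0.30 ± 0.084), Ggps1, which makes geranylgeranyl diphosphate (-0.27 ± 0.061), and Icmt, a methyltransferase of prenylated proteins (-0.27 ± 0.077). Rabggta, a subunit of the enzyme that prenylates Rab proteins, rose by 0.27 ± 0.083 (adjusted p = 0.0469, limma). Ggps1 lost its call without either control array (adjusted p 0.0662 and 0.0839), and Rabggta without any 1 of the 6 arrays at 96 h (0.0720 to 0.203). Pggt1b lost it in 6 of 8 fits without 1 array, all but those without siRNA 1 replicate 1 or siRNA 2 replicate 1 at 96 h (0.0597 to 0.150), and Icmt in 7 of 8, all but the fit without control replicate 2 (0.0526 to 0.258).

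In fatty acid synthesis 4 of 15 measured genes rose and 2 fell (median 0.06), where 24.2% of all genes were called. Acss2, which makes acetyl-CoA from acetate for lipids and for histones, was at 6.07 and 5.94 in the control, 5.16 and 5.01 with siRNA 1, and 5.29 and 5.36 with siRNA 2. It fell by 0.81 ± 0.073, or 1.75-fold (adjusted p = 0.000204, limma), with no overlap. Acsl3, a fatty acid activating enzyme, rose by 0.51 ± 0.084 (adjusted p = 0.00349), and Elovl6, an elongase, by 0.38 ± 0.059 (adjusted p = 0.00292). Mlxipl, the carbohydrate-responsive factor ChREBP, rose by 0.37 ± 0.092 (lost without control replicate 1, adjusted p = 0.147), and Fasn, fatty acid synthase, by 0.26 ± 0.080 (adjusted p = 0.0444, limma). Acly, which makes acetyl-CoA from citrate, fell by 0.26 ± 0.059, a call lost without either control array (adjusted p 0.0651 and 0.104). The call for Fasn was lost in 7 of 8 fits without 1 array, all but the one without siRNA 2 replicate 1 (adjusted p from 0.0628 to 0.235). With the lung marker mean as a covariate, Srebf1, Nceh1, Pggt1b, Icmt, Rabggta, Mlxipl and Fasn were also no longer past the threshold.

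**Figure D4:**
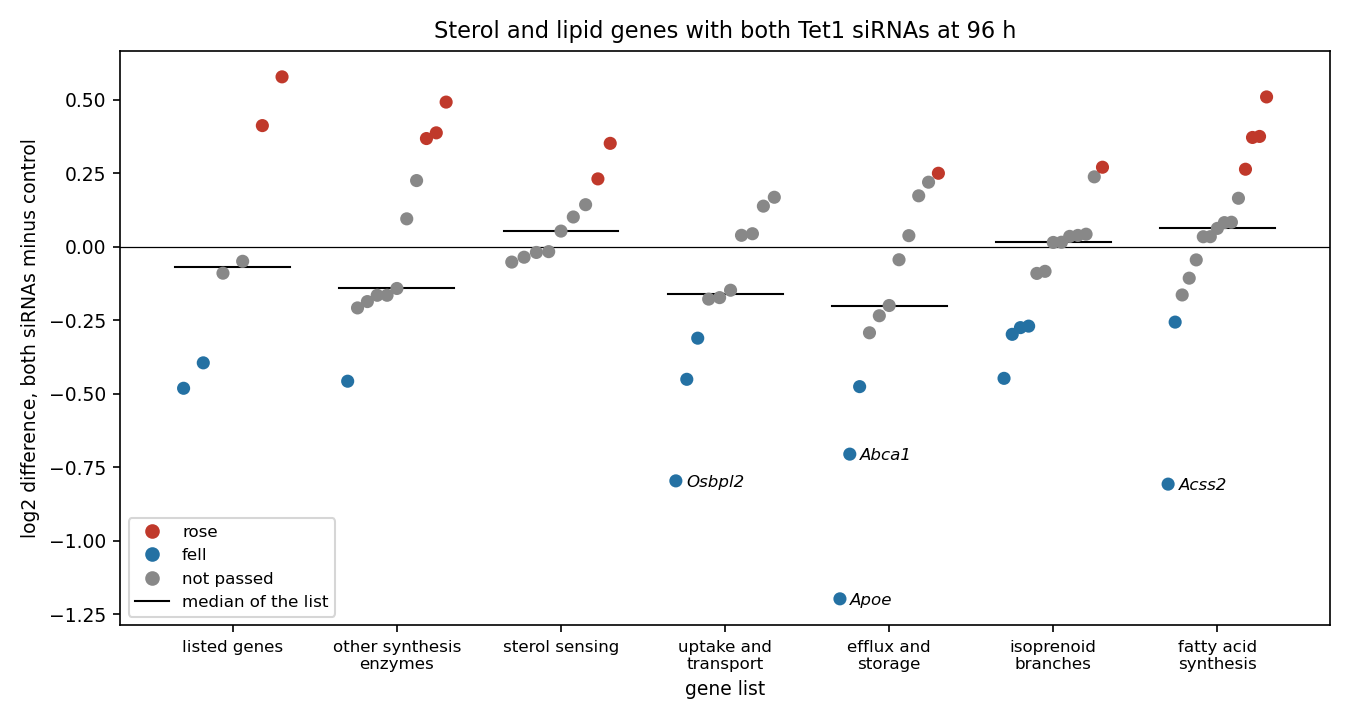
Log2 difference between both Tet1 siRNAs and the control at 96 h (vertical axis) for every measured gene of 7 lists (horizontal axis); each point is a gene, coloured by its call, and black lines are list medians. Apoe, Abca1, Osbpl2 and Acss2 lie lowest, between -0.70 and -1.20, while points of the synthesis lists lie between -0.48 and 0.58.

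Each siRNA was next set against the control alone, and these comparisons share their control arrays, so the values stand side by side and lend each other no independent weight. With siRNA 1, 22.8% of all genes passed (11.6% higher and 11.2% lower), and 4 of the 6 listed genes did. Sqle rose by 0.65, Cyp51 by 0.40, and Lss and Dhcr7 fell by 0.41 and 0.58. With siRNA 2, 15.7% of all genes passed (8.01% higher and 7.66% lower), and the same 4 of 6 did: Sqle rose by 0.51 and Cyp51 by 0.43, while Lss fell by 0.38 (adjusted p = 0.0428, limma) and Dhcr7 by 0.38 (adjusted p = 0.0471). Hsd17b7 rose and Ebp fell against the control with either siRNA, by 0.55 and 0.53 with siRNA 1 and by 0.43 and 0.38 with siRNA 2. The other differences of the pathway were of like sign but smaller with siRNA 2 for Msmo1 (0.47 and 0.27) and Sc5d, and both passed with siRNA 1 and not with siRNA 2 (adjusted p = 0.127 for Msmo1 and 0.0655 for Sc5d, limma). With siRNA 2 both did pass with an intensity trend (0.0388 and 0.0220) and without dim genes (0.0442 and 0.0167), and Sc5d after quantile normalization (0.0469); the test of siRNA 1 against siRNA 2 called neither.

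The siRNA 2 falls were the less firm. Lss lost its call in 7 of 8 fits without 1 array (all but the fit without control replicate 1, adjusted p from 0.0630 to 0.195), and Dhcr7 in 6 of 8 (both controls, both siRNA 2 arrays and both 48 h arrays, adjusted p from 0.0625 to 0.215). Sqle lost its siRNA 2 call without siRNA 2 replicate 2 (difference 0.40, adjusted p = 0.0549), and Lss its siRNA 1 call without control replicate 2 or either siRNA 1 array at 96 h (adjusted p from 0.0674 to 0.122). Ebp lost its siRNA 2 call without control replicate 2 or either siRNA 2 array (adjusted p from 0.0576 to 0.0728), and Hsd17b7 without control replicate 2 or siRNA 2 replicate 2 (0.0769 to 0.0826). In the siRNA 1 comparison Sc5d lost its call without control replicate 1 or siRNA 1 replicate 2 (adjusted p from 0.0585 to 0.0699), and Msmo1 without either control array or siRNA 1 replicate 2 (0.0534 to 0.0932). With the lung marker mean as a covariate, Lss was past the threshold neither with siRNA 1 (-0.38, adjusted p = 0.0636) nor with siRNA 2 (-0.35, 0.0934), and Dhcr7 not with siRNA 2 (-0.31, 0.0845). The siRNA 2 falls of Lss and Dhcr7 were also past the threshold no longer when the 48 h arrays were left out of the fit (adjusted p = 0.0724 for Lss and 0.0731 for Dhcr7).

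The direct test of siRNA 1 against siRNA 2 called 0 of the 6 genes and 0 of the 11 other enzymes, where 0.0197% of all genes passed. Among the 17 synthesis genes the widest gaps were 0.20 for Msmo1 and -0.20 for Dhcr7, whose 95% interval ran from -0.44 to 0.05. For Sqle the interval of the difference was -0.07 to 0.35, for Cyp51 -0.19 to 0.14 and for Lss -0.27 to 0.21. Differences inside these intervals could not be resolved with 2 arrays a group.

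Within siRNA 1, the times were then compared. Against 48 h, 96 h gave higher Sqle, Cyp51 and Lss and lower Srebf2, so 4 of 6 genes were called, where 37.6% of all genes passed (19.2% higher and 18.5% lower). The median of the 6 differences was 0.26, against -0.03 for all genes. These differences depend in part on the scaling. After quantile normalization Lss stood at 0.22, not 0.32, and Fdft1 at -0.07, not 0.01, and 3 of the 6 genes were called. The median was not read from that setting. In this pair of groups 12 of 17 lung markers rose towards 96 h (median 1.51, Scgb1a1 by 8.51), and of 14 fibroblast markers 7 rose and 2 fell (median 0.29). Of the 12 ES cell markers 0 rose and 8 fell towards 96 h (median -0.56, Klf4 -2.33), and of 12 liver markers 0 were called. The part of these markers in the result was not tested.

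Cyp51 changed most with time: its 48 h arrays read 8.67 and 8.58, under every other array of the gene, and those of siRNA 1 at 96 h 9.33 and 9.35. The difference was 0.71 ± 0.072, or 1.64-fold (95% interval 0.55 to 0.88, adjusted p = 0.000226, limma). Srebf2 went the other way, with 8.49 and 8.54 at 48 h above every 96 h array and a fall by 0.38 ± 0.081 to 96 h (adjusted p = 0.00732). The fall of Srebf2 and the rise of Cyp51 held in all 8 fits without 1 array.

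Sqle read 10.36 and 10.23 at 48 h and was higher at 96 h by 0.36 ± 0.092 (adjusted p = 0.0166, limma), a call lost without siRNA 1 replicate 2 at 96 h (adjusted p = 0.0848) or at 48 h (0.105). Lss read 9.06 and 9.02 at 48 h and was higher at 96 h by 0.32 ± 0.103 (adjusted p = 0.0428), a call lost in 6 of 8 fits, all but those without a control array (adjusted p up to 0.165). It was lost as well after quantile normalization (difference 0.22, adjusted p = 0.137). Dhcr7, at 8.86 and 8.75 at 48 h, was higher at 96 h by 0.20 ± 0.107 without passing (adjusted p = 0.188). Fdft1, at 10.70 and 10.64, differed by 0.01 ± 0.073 (95% interval -0.15 to 0.18).

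Of the 11 other enzymes 3 were higher at 96 h and 2 lower, where 37.6% of all genes passed (19.2% higher and 18.5% lower). Hsd17b7 was at 7.13 and 7.08 at 48 h and rose by 0.70 ± 0.087 to 96 h, or 1.63-fold (adjusted p = 0.000596, limma). Msmo1 rose by 0.46 ± 0.104 and Pmvk by 0.26 ± 0.069. Tm7sf2, the carbon 14 reductase, was at 7.49 and 7.46 at 48 h and fell by 0.59 ± 0.111 to 96 h (adjusted p = 0.00423), and Ebp fell by 0.37 ± 0.076 (adjusted p = 0.00651). Msmo1 lost its call without siRNA 1 replicate 2 at either time (adjusted p 0.0604 and 0.0629), and Pmvk without any 1 of the 4 siRNA 1 arrays (adjusted p from 0.0552 to 0.0847).

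The last comparison took siRNA 1 at its 48 h point and the 96 h control, in which siRNA and time change together and cannot be told apart. Of the 6 genes 2 were higher and 3 lower, where 35.4% of all genes passed (17.1% higher and 18.4% lower), and 14 of 17 lung markers were lower (median -1.72). Of the ES cell markers 6 of 12 were higher and 0 lower (median 0.24), of 14 fibroblast markers 2 were higher and 4 lower, and of 12 liver markers 1 was higher; the part of these markers in the result was not tested. Dhcr7 was lower by 0.77 ± 0.107, or 1.71-fold (adjusted p = 0.00122, limma), and Lss by 0.72 ± 0.103, or 1.65-fold (adjusted p = 0.00138). Both were lowest at 48 h among the 4 groups, and both calls held in all 8 fits without 1 array.

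Cyp51, above the control with siRNA 1 at 96 h, was below it at 48 h, by 0.31 ± 0.072 (adjusted p = 0.0112, limma). It was no longer called without control replicate 1 (adjusted p = 0.0537) or siRNA 1 at 48 h replicate 2 (0.0707). Srebf2 was higher by 0.36 ± 0.081, or 1.28-fold (adjusted p = 0.0103), lost without control replicate 2 (0.0676) or siRNA 1 at 48 h replicate 2 (0.0619). Sqle was higher by 0.29 ± 0.092 (adjusted p = 0.0403), lost in 6 of 8 fits, all but those without a siRNA 2 array (adjusted p up to 0.188). Fdft1 did not pass (-0.08 ± 0.073). Among the other enzymes Pmvk (-0.41 ± 0.069) and Nsdhl (-0.28 ± 0.083) were lower, and Tm7sf2 (0.40 ± 0.111) and Lbr (0.26 ± 0.071) higher. The call of Tm7sf2 was lost without control replicate 1 or either 48 h array (adjusted p from 0.0919 to 0.117), and that of Nsdhl without either control array or 48 h replicate 2 (0.0654 to 0.175).

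**Figure D5:**
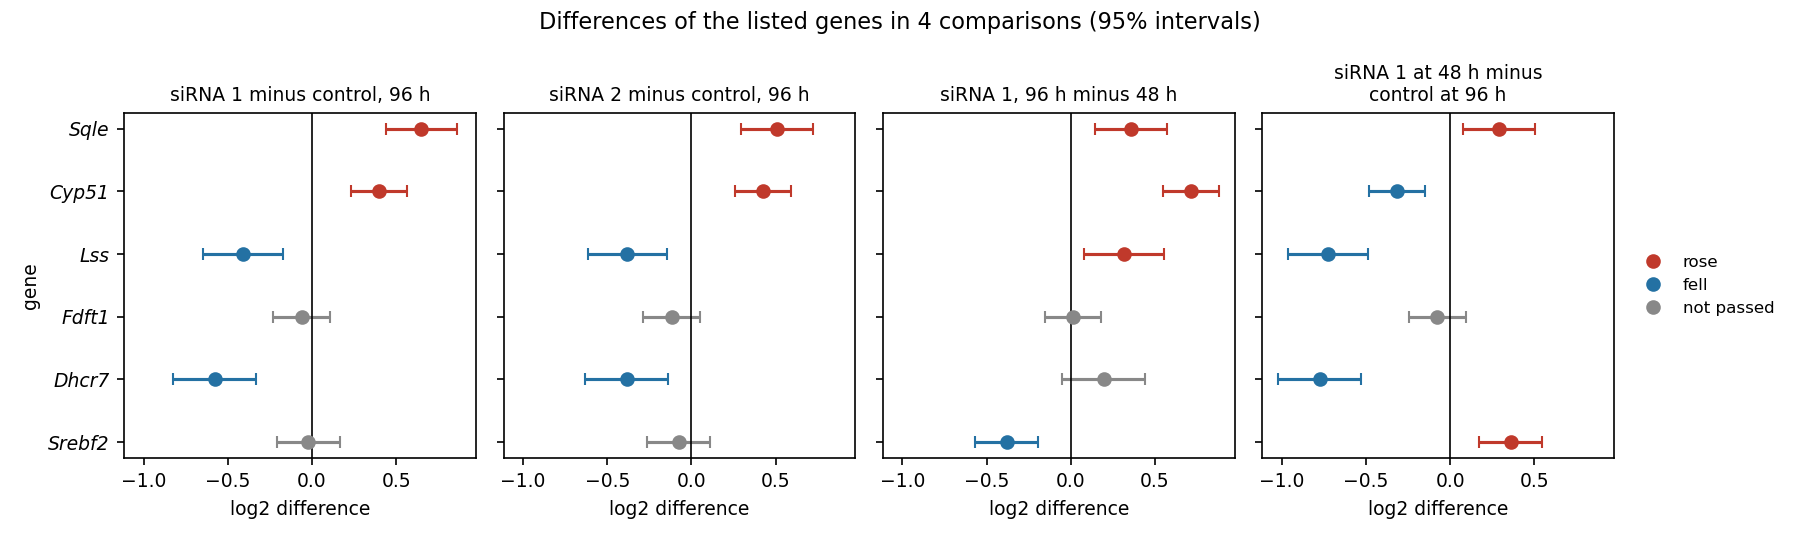
Log2 difference (horizontal axis) of the 6 measured genes (vertical axis) in 4 comparisons, 1 panel each, with 95% intervals as bars and the call as colour. The siRNA 1 and siRNA 2 panels carry the same calls; in the panels with 48 h arrays Srebf2 passes, falling by 0.38 from 48 h to 96 h and higher by 0.36 at 48 h than in the control, and Cyp51 shows a wide rise of 0.71 from 48 h to 96 h.

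Ordered by group mean, no pair of the 6 genes shared a full order of the 4 groups other than Lss and Dhcr7. Lss and Dhcr7 ran from siRNA 1 at 48 h through siRNA 1 and siRNA 2 at 96 h to the control at the top, and in both the 96 h siRNA groups overlapped. Sqle ran from the control through siRNA 1 at 48 h and siRNA 2 to siRNA 1 at 96 h, with no overlap between neighbours. Cyp51 ran from siRNA 1 at 48 h through the control to the siRNAs at 96 h, which overlapped. Srebf2 ran from siRNA 2 through siRNA 1, both at 96 h, and the control to siRNA 1 at 48 h; siRNA 1 at 96 h overlapped both of its neighbours, and the 48 h group lay above all others. The group means of Fdft1 lay between 10.63 and 10.75, and siRNA 1 overlapped between 48 h and 96 h.

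The genes whose profile over the 8 arrays was most like each listed gene were found by the root mean square difference in log2 signal after each gene's own mean was taken off, as a description. Closest to Sqle was Tfdp1 (0.041 over 8 arrays), followed by Osgin2 and Atad1. Closest to Cyp51 were Rrp36 (0.031), Psmf1 and Ddx31. Lss and Dhcr7 had the same nearest gene, Mon1b (0.043 and 0.062), followed by Wasf2 and Rpain for Lss and by Xab2 and Morn2 for Dhcr7. Closest to Srebf2 were Kcnj11 (0.030), Msh6 and Pex11g. Closest to Fdft1 were Hspa5 (0.023), Slc5a3 and Arhgap12, where the whole profile of Fdft1 departs from its own mean by only 0.051. Among these nearest genes there was no gene of the other sterol and lipid lists, which with 3 genes taken per profile says little. The listed genes themselves were left out of the search. The closest pair among them was Lss and Dhcr7, at 0.094.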

How the data were processed

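Expression was measured on 8 arrays of E14Tg2a cells, 2 per group. The deposited values are log2 signals, 1 per probe set and array, made by the authors with RMA, per the submitters' processing notes, which give no version. RNA was labelled with an Affymetrix in vitro transcription kit, per the labels' protocols. RMA brings arrays to a like distribution, so a change in total RNA per cell is not visible. Without scanner signals no limit of detection was set, and the number of arrays limits the precision. Genome build and array batches: not given in the sources used here.

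Of 16556 probe sets, 64 were controls and 1222 were not listed in the platform annotation and stayed unnamed. The annotation gave 1 symbol to 15270 probe sets and several to 0; symbol updates changed 0. For 3 genes with several probe sets the one with the highest mean was used. Tet1, Hmgcs1 and Idi1 were not analysed here.

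Means of the 4 groups were fitted over the 8 arrays with limma 3.58.1 in R 4.3.3 (4 residual and 4.13 prior degrees of freedom) and tested on simulated data. Tests are two-sided, and p-values were adjusted by Benjamini-Hochberg over the 15267 genes, separately for the 6 comparisons. The listed genes, other lists and tests were chosen with earlier results of these data known. The genes named are the listed genes, up to 6 called genes per other list in order of adjusted p (or the 2 lowest in p, if under 2 were called), a few genes always named (Npc1, Insig1, Srebf1 and Abca1 among them), and the 3 nearest profiles of each listed gene; Nr1h3, Mvk, Pmvk, Mvd, Nsdhl, Erg28, Tm7sf2 and Lbr, where not called, and the lung and ES cell markers were named after their values were seen. Alternatives were an intensity trend, quantile normalization, median centring, a filter on dim genes, the 96 h arrays alone, a lung marker covariate, a replicate block, and each array left out. Promoter windows are those of RefSeq. Replicate numbers were not taken as pairs, because differences between same-numbered arrays correlated between groups at r from -0.056 to 0.14 and only 1 of 6 group pairs was over 0.1.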

Additional observations from a re-analysis of the deposited data

How the results depend on the processing

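With 1 array left out at a time, called genes ranged from 2218 to 3328 for both siRNAs against control, 1906 to 3348 for siRNA 1, 1160 to 2043 for siRNA 2, 0 to 3 for siRNA 1 against siRNA 2, 3664 to 5676 for 96 h against 48 h and 3212 to 5344 for 48 h against control. Called genes among the 6 ranged from 2 to 4, 3 to 4, 1 to 3, 0 to 0, 2 to 4 and 2 to 5 in the same order. The lowest gene counts came without control replicate 2, siRNA 1 replicate 2 at 96 h, siRNA 2 replicate 2 and, for both last comparisons, siRNA 1 replicate 2 at 48 h. The group left short then holds 1 array, whose spread is assumed to be that of the other groups. The siRNA 2 count among the 6 was 2, not 4, with only the 96 h arrays, with the lung covariate and with the replicate block. The replicate block (adjusted p for siRNA 2: Lss 0.0625, Dhcr7 0.0516) also ended the calls of Lss for 96 h against 48 h (0.0597) and Sqle for 48 h against control (0.0559), and, for both siRNAs against control, of Rabggta (0.0629), Fasn (0.0578) and Nceh1 (0.0517); the numbers are shared labels only. For siRNA 1 against siRNA 2, called genes (3) became 124 with an intensity trend, 172 without dim genes and 0 with only the 96 h arrays; 0 of the 6 were called.

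Signs turned only in differences that had not passed. These ranges come from leaving out 1 array: Srebf2 -0.12 to 0.022 for both siRNAs and -0.093 to 0.049 for siRNA 1, Npc1 -0.19 to 0.046 for siRNA 2, Lss -0.064 to 0.0058 and Srebf2 -0.0011 to 0.11 for siRNA 1 against siRNA 2, and Fdft1 -0.013 to 0.0398 for 96 h against 48 h, where quantile normalization gave -0.069. The cause was not tested. Over the 6 genes and comparisons, leaving out an array kept sign and call 244 times, ended a call 37 times and turned a sign 7 times; the other settings did so 216, 11 and 1 times. The lung covariate was fitted with all arrays, and by choice only the comparisons among 96 h groups were read from that fit.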
